A study of Mus musculus with 6 samples.

Results

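The 10 genes studied here encode the cyclins, cyclin-dependent kinases (CDKs) and CDK inhibitors that govern passage through G1: Ccnd1, Ccnd2, Ccnd3, Ccne1, Ccne2, Cdk2, Cdk4, Cdk6, Cdkn1a and Cdkn1b. They were chosen by gene family, and a gene was measured where a probe set of the array was annotated with its symbol and no other. This held for 9 of the 10 genes, out of 19938 genes measured in all. Cdkn1a, which encodes the inhibitor p21, was not analysed here because its 1 probe set carries 2 gene symbols.

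Expression was measured on 6 arrays of total RNA from mouse embryonic stem (ES) cells, 3 from Satb1-/- cells (labelled clones 1-1, 1-2 and 2-1) and 3 from wild-type cells (WT replicates 1, 2 and 3). Satb1 encodes a DNA-binding protein that organises chromatin. Cells of both genotypes carried a HygroTK reporter in the Oct4 locus and were grown for 3 days with LIF and serum on irradiated feeder cells. Hygromycin kept the cells that expressed Oct4, and settling of the suspension removed most feeders before RNA was prepared. The sources used here give neither the strain nor the meaning of the first clone number. The labels do not state whether replicate arrays stand for independent cultures; the spread behind every p-value may therefore be technical, and the small number of clones limits what the knockout group stands for. In bulk RNA a lower level per cell and fewer cells of a type cannot be told apart.

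During G1, D-type cyclins activate CDK4 and CDK6, and E-type cyclins activate CDK2. These kinases phosphorylate the retinoblastoma protein RB, which frees E2F transcription factors to switch on genes of DNA replication. The inhibitors p27, encoded by Cdkn1b, and p21 bind the cyclin-CDK pairs. Mouse ES cells are known for a short G1 phase, with CDK2 active through most of the cycle.

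Values are log2 expression values, on which a difference of 1 is a doubling, and differences are Satb1-/- minus WT. A gene counted as changed at a limma adjusted p under 0.05 over all 19938 genes. Satb1 itself read 4.38, 4.47 and 4.57 on the Satb1-/- arrays, against 5.12, 4.99 and 5.31 on the WT arrays, a difference of -0.67 (SE 0.12, adjusted p = 0.022). Where its probes lie relative to the deletion is not known, so this does not check the knockout. On the first principal component (36.2% of the variance) WT replicates 1, 2 and 3 scored 26.7, 10.6 and 3.7, and the Satb1-/- arrays -15.5 to -12.7. On the second (29.4% of the variance) WT replicate 3 scored -29.3 and the other 5 arrays 0.5 to 13.1, so member results are also given without it. WT replicate 1 was the extreme array on the first component, and its limma array weight (0.460) was about as low as that of WT replicate 3 (0.445). All 10 ES cell markers examined were above the background level of the array, taken as the 95th percentile (4.37) of 1194 olfactory and vomeronasal receptor genes, and so were 16 of 17 feeder fibroblast markers. Of these 17, 15 had a positive difference (median 0.18), 4 had an unadjusted p under 0.05, and 0 passed the threshold. The 9 measured genes all averaged above this background level.

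Among the 9 genes, 1 rose and 0 fell in Satb1-/- cells. Over all genes tested, 0.923% rose and 0.476% fell. The gene that rose was Cdkn1b, the p27 gene, by 1.39 log2 units (2.61-fold). The 3 D-type cyclin genes, the 2 E-type cyclin genes and the 3 kinase genes did not pass the threshold. Their differences lay between -0.19 (Ccne2) and 0.38 (Ccnd1), and 7 of these 8 were positive, with a median of 0.23, where the median of all genes was -0.004. Of all genes 48.5% had a positive difference, and of genes brighter than the median gene 53.9% (median 0.019). WT replicate 3 was the highest WT array for all 8 genes, so they are not 8 independent results. The arrays of the 2 genotypes did not overlap for 1 of the 9 genes, again Cdkn1b, and for 15.1% of all genes (8.18% with Satb1-/- higher and 6.97% with it lower). Of the 9969 genes brighter than the median gene, 1990 did not overlap.

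**Figure D1:**
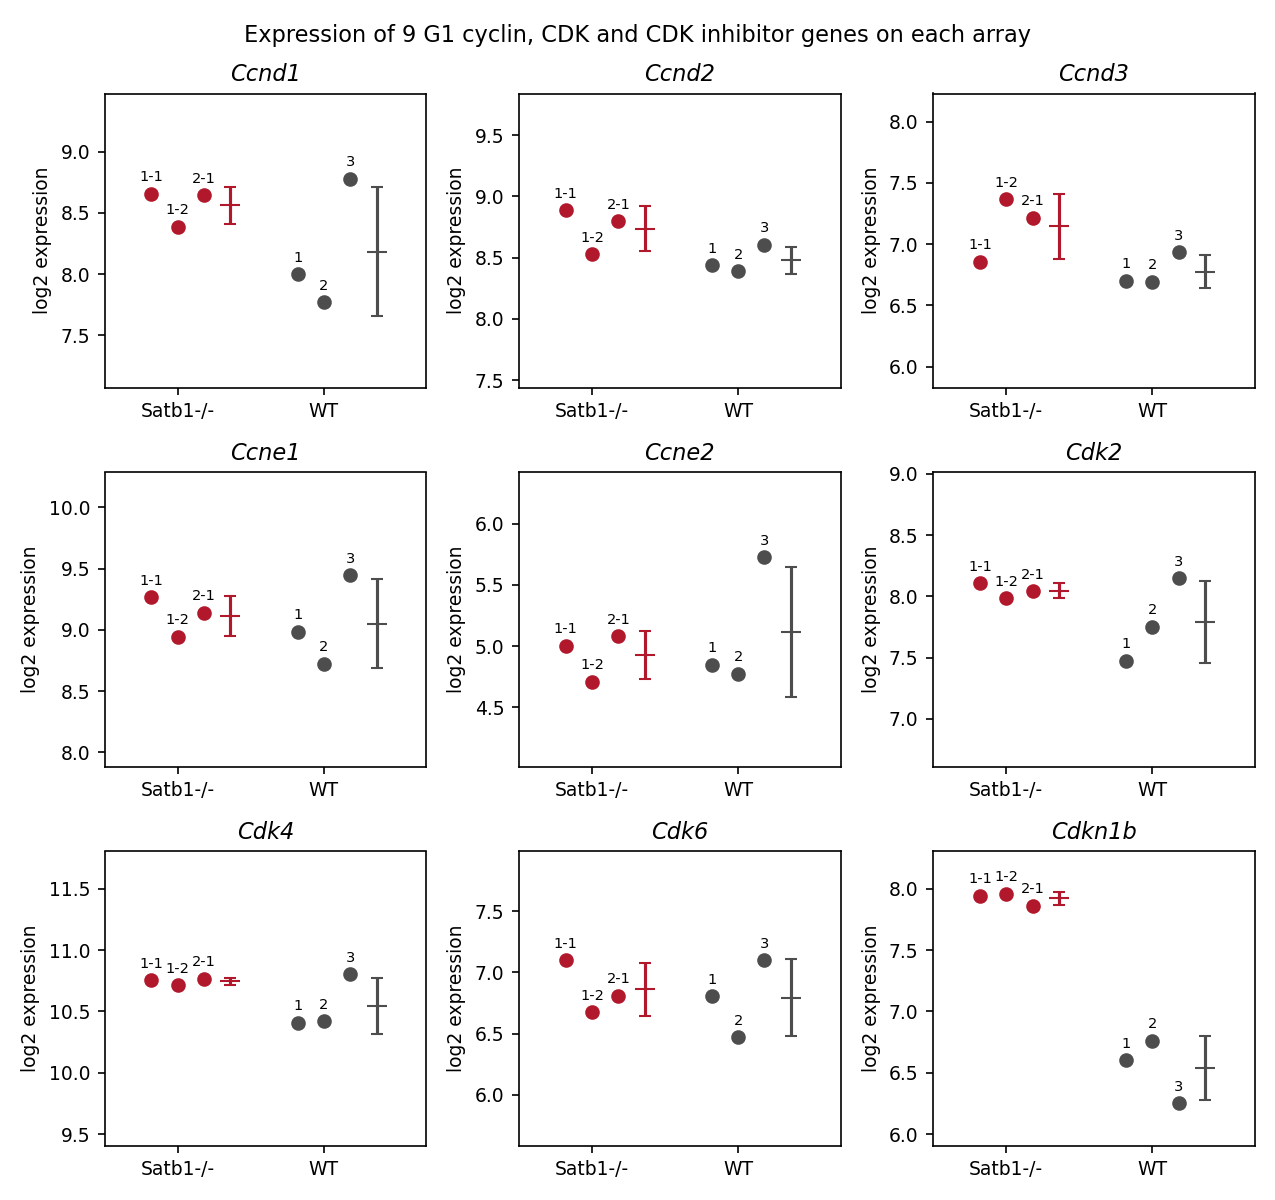
Log2 expression (y axis) of the 9 measured genes on each array, Satb1-/- in red on the left and WT in grey on the right, with the array's label above each point; bars show the mean and SD of 3 arrays, and every panel spans the same number of log2 units. Cdkn1b is the gene whose groups stand apart, at 7.86 to 7.96 on the Satb1-/- arrays and 6.25 to 6.76 on the WT arrays, and WT replicate 3 is the highest WT array in the other 8 panels.

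Cdkn1b read 7.94, 7.96 and 7.86 on Satb1-/- arrays 1-1, 1-2 and 2-1, against 6.60, 6.76 and 6.25 on WT arrays 1, 2 and 3. Every Satb1-/- array lay above every WT array, and the lowest of them exceeded the highest WT array by more than 1 log2 unit. The group means were 7.92 ± 0.05 in Satb1-/- cells and 6.54 ± 0.26 in WT cells (SD, n = 3 each). The difference had an SE of 0.14, a 95% confidence interval of 1.08 to 1.69 and a limma adjusted p of 0.000859. A second probe set of the gene gave the same picture, with 6.87, 6.81 and 6.98 on the Satb1-/- arrays, against 5.33, 5.80 and 5.27 on the WT arrays. Its difference was 1.42 (SE 0.16, limma adjusted p = 0.0298 over all probe sets).

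Leaving out any single array kept the Cdkn1b difference between 1.24 and 1.5, with limma adjusted p from 0.000277 to 0.0113. The value of 1.24 is the one without WT replicate 3, the lowest WT array for this gene. Feeder marker signal, summed over the 17 fibroblast genes on the linear scale, was 1986 to 2486 on the Satb1-/- arrays and 1725 to 2157 on the WT arrays. The groups overlapped, since the sum of Satb1-/- array 1-2 (1986) lay below that of WT replicate 2 (2157). The differences of the 17 genes ran from -0.09 (Col6a2) to 0.62 (Thy1), and besides Thy1 those of Postn (0.61), Dcn (0.59) and Pdgfra (0.53) were above 0.5. Col1a1 read 8.07 ± 0.10 in Satb1-/- cells and 7.95 ± 0.20 in WT cells, and Col3a1 6.18 ± 0.07 and 6.10 ± 0.16 in the same order (SD, n = 3 each). The part of feeder RNA in the Cdkn1b result was not tested.

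The promoter letters of Cdkn1b are shown beside those of Cdk2 and Cdk4, kinase genes whose products p27 binds and which, like Cdk6, did not pass the threshold. Each line gives the 250 bases before the start site from RefSeq (GRCm38.p6), 5′ to 3′ on the gene's strand: chr6:134920151-134920400 on the plus strand for Cdkn1b, chr10:128705052-128705301 on the minus strand for Cdk2 and chr10:127063285-127063534 on the plus strand for Cdk4. Capitals mark matches on either strand to the E2F motif TTTNNCGC, the GC box GGGCGG, the CCAAT box CCAAT, the E-box CACGTG, the FOXO motif GTAAACA and the TATA box TATAAA.
Cdkn1b: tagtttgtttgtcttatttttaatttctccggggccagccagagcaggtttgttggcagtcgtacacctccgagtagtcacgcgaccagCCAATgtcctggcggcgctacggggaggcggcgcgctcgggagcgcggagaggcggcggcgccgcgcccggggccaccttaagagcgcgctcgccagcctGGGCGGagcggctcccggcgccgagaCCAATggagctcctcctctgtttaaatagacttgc
Cdk2: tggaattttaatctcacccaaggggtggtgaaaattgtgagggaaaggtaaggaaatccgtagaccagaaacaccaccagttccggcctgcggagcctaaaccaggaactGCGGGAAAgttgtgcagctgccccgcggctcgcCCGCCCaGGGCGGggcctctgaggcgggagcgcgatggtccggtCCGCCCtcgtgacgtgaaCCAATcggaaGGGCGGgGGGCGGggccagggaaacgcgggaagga
Cdk4: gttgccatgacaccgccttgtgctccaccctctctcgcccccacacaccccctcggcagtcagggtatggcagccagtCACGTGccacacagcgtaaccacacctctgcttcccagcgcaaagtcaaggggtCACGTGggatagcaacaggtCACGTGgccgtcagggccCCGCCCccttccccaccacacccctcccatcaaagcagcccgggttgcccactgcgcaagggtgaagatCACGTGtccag
The Cdkn1b window held CCAAT boxes that began 161 and 35 bases before the start site and a GC box at 61 bases, with no match to the other 4 motifs. In the Cdk2 window there were 5 GC boxes, 1 CCAAT box and 1 E2F match, and in the Cdk4 window 4 E-boxes and 1 GC box. Of 32851 windows of the same length, 33.8% held a CCAAT box, 32.7% a GC box, 6.0% the E-box, 4.3% the E2F motif, 12.4% the TATA box and 3.2% the FOXO motif. No match of these motifs overlapped another in the 3 windows. A match describes the letters of the window and is not a binding site, and a missing match says nothing of the factor. RefSeq windows of the measured genes Ccnd3, Ccne1 and Cdk6 were also searched, and Ccnd1, Ccnd2 and Ccne2 were not in the table.

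Cdkn1b and Ccnd2 both lie on distal chromosome 6, where most neighbouring genes were higher in Satb1-/- cells. Over all chromosomes, 169 of the 9969 genes brighter than the median gene rose and 84 fell. Of the 20 nearest genes brighter than the median gene, 10 on each side of Cdkn1b, 13 rose and 1, Prp2 (-0.87), fell, and their median difference was 0.89. Cdkn1b exceeded 19 of these 20 neighbours. The exception was Lrp6, which encodes a Wnt co-receptor (difference 1.60). Brightness was judged on the mean of all 6 arrays, so a gene raised in Satb1-/- cells could pass through those arrays. With dim neighbours included the median difference of the neighbours was 0.648 for Cdkn1b and 0.548 for Ccnd2. Immediately before Cdkn1b lie Crebl2 (1.14, limma adjusted p = 0.0008) and the receptor gene Gpr19 (1.16, limma adjusted p = 0.00436), which both rose. Immediately after it, Apold1 differed by 0.27 (limma adjusted p = 0.533) and the helicase gene Ddx47 rose by 1.23 (limma adjusted p = 0.00147).

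Around Ccnd2, 11 of the 20 brighter neighbours rose and 0 fell, with a median difference of 0.83. The neighbours exceeded Ccnd2 (0.26) in 18 of 20 cases, and the other 2 were Ltbr (-0.07) and Tspan11 (-0.04). Among its nearest tested genes, Tigar, a p53 target gene that encodes a regulator of glycolysis, rose by 0.96 (limma adjusted p = 0.0475) and Parp11 by 0.88 (limma adjusted p = 0.00644). Fgf23, at or below the background level, differed by -0.03 and Cracr2a by 0.01. Foxm1, which encodes a transcription factor of G2 and M phase genes and was named after its value was seen, is among the neighbours of Ccnd2 and rose by 1.09 (SE 0.12, limma adjusted p = 0.00159). Between Ccnd2 and Cdkn1b lie 21 brighter genes, of which 13 rose and 1 fell (median 0.85).

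**Figure D2:**
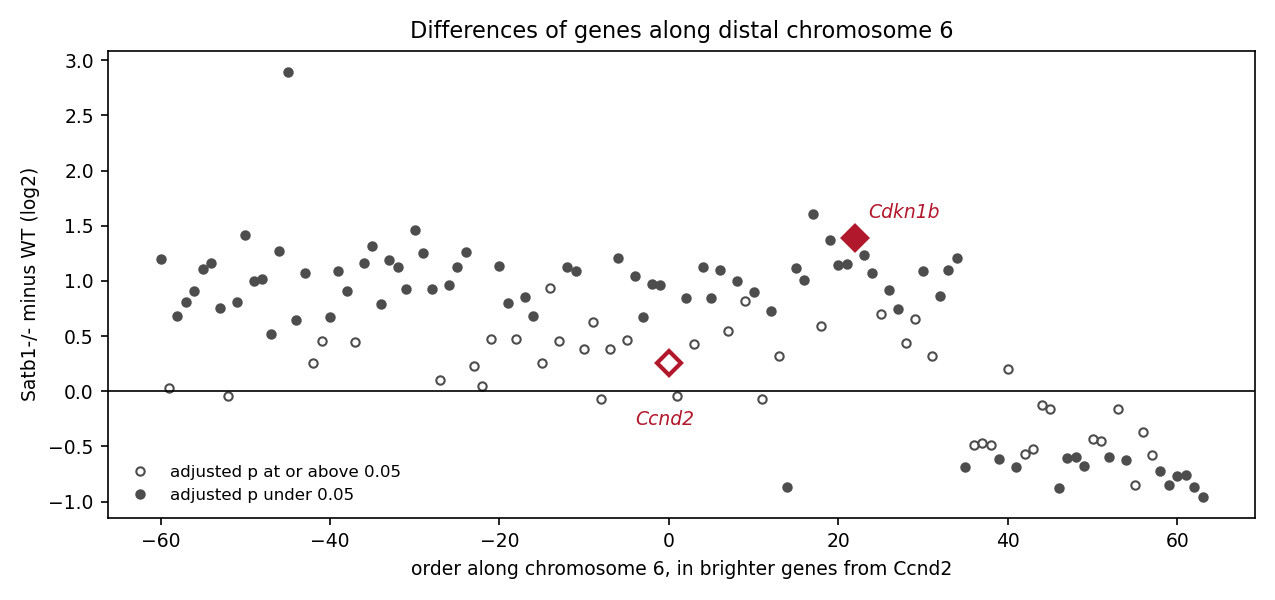
Difference Satb1-/- minus WT in log2 units (y axis) of genes brighter than the median gene, in their order along chromosome 6 counted from Ccnd2 (x axis); filled points passed a limma adjusted p of 0.05 and the red diamonds are Ccnd2 and Cdkn1b. Ccnd2 (0.26, open diamond) lies below most genes of the raised stretch, Cdkn1b (1.39, filled diamond) lies near its upper edge, and the direction turns 35 genes after Ccnd2.

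The shift of each gene relative to its surroundings was measured as its value minus the median value of its 20 brighter neighbours on the same array. Such a gap has no meaning of its own, because it joins different probe sets. Its change between the genotypes follows the gene and the middle level of its neighbours together. The neighbour at that level can differ between arrays, so the change need not equal the gene's difference minus the neighbours' median difference. For Cdkn1b the gap was 0.68, 0.80 and 0.61 on Satb1-/- arrays 1-1, 1-2 and 2-1, against 0.27, 0.32 and -0.16 on WT arrays 1, 2 and 3. The groups did not overlap, and the gap was wider in Satb1-/- cells by 0.55. For Ccnd2 the gap was 1.58, 1.28 and 1.55 on the Satb1-/- arrays, against 2.25, 2.09 and 2.10 on the WT arrays. Here the gap was narrower in Satb1-/- cells (difference -0.68), again with no overlap. An exact two-sided permutation test gave p = 0.1 for both, the smallest that 3 against 3 arrays allow, so neither can pass 0.05.

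Both values move with the choice of neighbours. With dim neighbours included the Ccnd2 gap changed by -0.15 (exact permutation p = 0.5), 10 of those 20 being no brighter than the median gene. The Cdkn1b gap changed by 0.37 with 5 neighbours on each side, by 0.88 with 20 and by 0.50 with dim neighbours included (exact permutation p = 0.1 each). The window with 20 on each side reaches past the turn of direction 35 genes after Ccnd2. Of its 40 genes 9 were lower in Satb1-/- cells, and their median difference was 0.78 over all 40. With the second probe set the Cdkn1b gap changed by 0.58. Set directly against each other, the difference of Cdkn1b exceeded that of Ccnd2 by 1.13 (exact permutation p = 0.1), and it exceeded those of Cdk2 and Cdk4 by 1.13 and 1.18 (exact permutation p = 0.1 each).

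**Figure D3:**
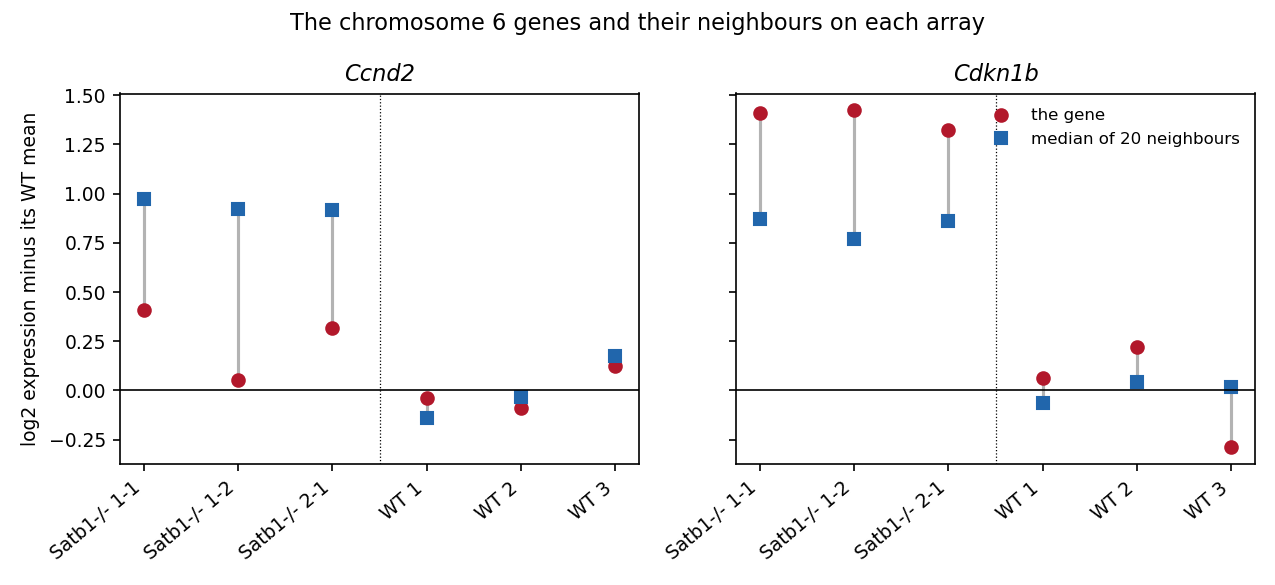
Log2 expression minus the WT mean (y axis) on each array (x axis, Satb1-/- left of the dotted line and WT right of it) for Ccnd2, for Cdkn1b and for the median of the 20 brighter neighbours of each. On the Satb1-/- arrays the neighbours of Ccnd2 stand at 0.92 to 0.97 and Ccnd2 at 0.05 to 0.41, whereas Cdkn1b stands at 1.32 to 1.42 and its neighbours at 0.77 to 0.87.

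The D-type cyclin genes link growth signals to CDK4 and CDK6. Ccnd1 read 8.65, 8.39 and 8.64 on the Satb1-/- arrays, against 8.0, 7.77 and 8.78 on the WT arrays. All 3 Satb1-/- arrays lay above WT replicates 1 and 2 and below WT replicate 3. The difference was 0.38 (SE 0.22, 95% confidence interval -0.11 to 0.87, limma adjusted p = 0.642). Without WT replicate 3 it was 0.68 (SE 0.13, limma adjusted p = 0.0214) and passed the threshold, under which 1.79% of all genes rose and 0.622% fell. Without WT replicate 2 it was 0.17 (limma adjusted p = 0.873). The linear sum of 9 trophectoderm markers, 7 of them above the background level, was highest on WT replicate 3. It was 329 to 398 on the Satb1-/- arrays and 910, 976 and 2321 on WT replicates 1, 2 and 3. In that list Krt8 (-2.72) and Krt18 (-2.48), keratin genes of simple epithelia, fell. With Krt7 they made up most of the sum on the WT arrays, so it mainly follows keratin genes. Of the 9 markers 2, Eomes (0.55) and Elf5 (0.07), were higher in Satb1-/- cells. The part of these markers in the Ccnd1 values was not tested.

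Ccnd2 read 8.89, 8.53 and 8.80 on the Satb1-/- arrays, against 8.44, 8.39 and 8.60 on the WT arrays. Only Satb1-/- array 1-2, which lay below WT replicate 3, kept the groups from standing apart. The difference was 0.26 (SE 0.12, 95% confidence interval -0.01 to 0.53, limma adjusted p = 0.517). This interval lies below the 0.83 median of its brighter neighbours, but its upper limit (0.534) nearly meets the 0.548 median with dim neighbours included. Leaving out any single array gave a difference of 0.18 to 0.36, with adjusted p of at least 0.253.

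Ccnd3 read 6.86, 7.37 and 7.22 on the Satb1-/- arrays, against 6.70, 6.69 and 6.94 on the WT arrays. Satb1-/- array 1-1 lay below WT replicate 3, and the other Satb1-/- arrays lay above all WT arrays. With a difference of 0.37 (SE 0.14, 95% confidence interval 0.05 to 0.69) it was the only gene of the family besides Cdkn1b with an unadjusted p under 0.05 (0.0269), which 10.5% of all genes and 16.5% of genes brighter than the median gene had. Its limma adjusted p was 0.365. Among its 20 brighter neighbours on chromosome 17 the median difference was 0.03 and 0 exceeded that of Ccnd3.

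The E-type cyclin genes act with CDK2 at the entry into S phase. Ccne1 read 9.26, 8.94 and 9.14 on the Satb1-/- arrays, against 8.99, 8.72 and 9.45 on the WT arrays. The Satb1-/- values fell inside the WT range, and the difference was 0.06 (SE 0.17, 95% confidence interval -0.32 to 0.45, limma adjusted p = 0.961). Ccne2 read 5.0, 4.71 and 5.08 on the Satb1-/- arrays, against 4.85, 4.78 and 5.72 on the WT arrays. WT replicate 3 stood 0.91 above the mean of the other WT arrays. The Ccne2 difference was -0.19 (SE 0.22, 95% confidence interval -0.68 to 0.31, limma adjusted p = 0.888), and 0.12 without WT replicate 3.

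The kinase genes differed by 0.07 (Cdk6) to 0.25 (Cdk2). Cdk4, whose product pairs with D-type cyclins, read 10.75, 10.71 and 10.77 on the Satb1-/- arrays, against 10.41, 10.42 and 10.80 on the WT arrays. The Satb1-/- arrays spanned 0.05 log2 units, above WT replicates 1 and 2 and below WT replicate 3. The difference was 0.20 (SE 0.13, 95% confidence interval -0.08 to 0.48, limma adjusted p = 0.683), with 0.13 when WT replicate 1 was left out and 0.33 when WT replicate 3 was. Cdk2 read 8.11, 7.99 and 8.04 on the Satb1-/- arrays, against 7.48, 7.75 and 8.15 on the WT arrays, the same order of groups as for Cdk4. Its difference was 0.25 (SE 0.16, 95% confidence interval -0.09 to 0.60, limma adjusted p = 0.672). Leaving out WT replicate 1 gave 0.10 for Cdk2, and leaving out WT replicate 3 gave 0.43.

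Cdk6, the other kinase partner of D-type cyclins, read 7.10, 6.68 and 6.81 on the Satb1-/- arrays, against 6.81, 6.47 and 7.10 on the WT arrays. The groups covered nearly the same range, and the difference was 0.07 (SE 0.17, 95% confidence interval -0.30 to 0.44, limma adjusted p = 0.956). The intervals of Cdk2, Cdk4, Ccne1 and Cdk6 reach up to 1.52-fold, 1.39-fold, 1.36-fold and 1.36-fold, so changes of this size were not excluded by 3 arrays a group.

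**Figure D4:**
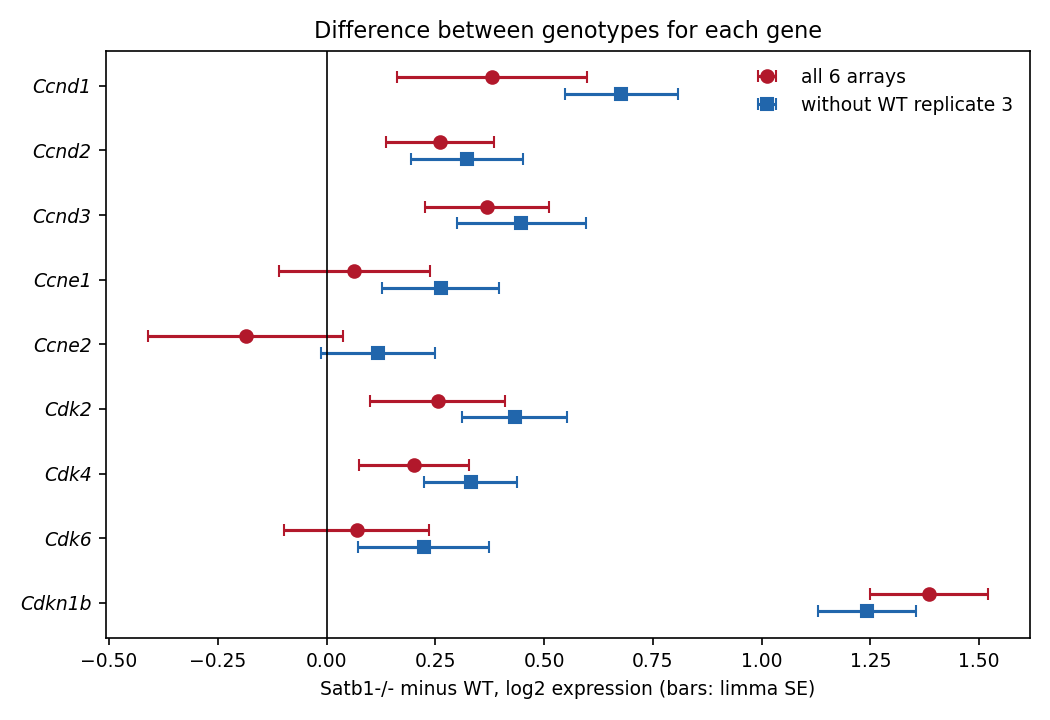
Difference Satb1-/- minus WT in log2 units (x axis) for the 9 genes (y axis), with all 6 arrays (red circles) and without WT replicate 3 (blue squares); bars are limma SEs. Cdkn1b lies at 1.39 and 1.24, apart from the other genes, and Ccnd1 moves from 0.38 with all arrays to 0.68 without WT replicate 3.

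Except for Ccnd2 and Ccnd3, these genes scattered more in the WT group. The SD among Satb1-/- and WT arrays was 0.19 and 0.11 for Ccnd2, and 0.26 and 0.14 for Ccnd3. The median SD of the 9 genes was 0.16 log2 units among Satb1-/- arrays and 0.31 among WT arrays, where that of genes brighter than the median gene was 0.10 and 0.18. WT replicate 3 was the highest WT array for 8 of the 9 genes, all but Cdkn1b. It was the highest for 52.6% of brighter genes. It exceeded the mean of WT replicates 1 and 2 by 0.19 (Ccnd2) to 0.91 (Ccne2) in those 8 genes and lay 0.43 below it for Cdkn1b (difference -0.43). In the Satb1-/- group, array 1-2 was the lowest for 7 of the 9 genes and for 46.5% of brighter genes, the exceptions being Ccnd3 and Cdkn1b.

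Of the wider G1 and cell cycle network, 7 lists with 89 measured genes beyond the family were examined. In these lists 2 genes rose and 0 fell (2.25%, against 1.4% of all genes), and the median difference was 0.03. Of the 9969 genes brighter than the median gene, 169 rose and 84 fell. Skp1, a subunit of the SCF ubiquitin ligase that marks p27 for degradation, read 10.42, 10.52 and 10.72 on the Satb1-/- arrays, against 9.72, 9.92 and 9.93 on the WT arrays (difference 0.70, SE 0.12, limma adjusted p = 0.0182). Its 20 brighter neighbours on chromosome 11 had a median difference of 0.56, and 8 of them rose. Skp1 missed the threshold without WT replicate 1 or any one Satb1-/- array (0.61 to 0.76). Skp2, the SCF subunit that recognises p27, differed by 0.14 (limma adjusted p = 0.839).

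Klf4, which encodes a pluripotency factor and is known as a regulator of CDK inhibitor and cyclin genes, read 7.63, 7.97 and 7.80 on the Satb1-/- arrays, against 6.65, 6.47 and 7.36 on the WT arrays. The groups did not overlap, as for 8.18% of all genes with Satb1-/- higher. The difference was 0.97 (SE 0.20, limma adjusted p = 0.0483). Of its 20 brighter neighbours on chromosome 4, 18 had a positive difference (median 0.24) and 2 rose. Klf4 stayed past the threshold when WT replicate 3 was left out (1.24) and missed it when any other array was (0.80 to 1.05). The other 10 genes of that list, regulators of cyclin D and p27 gene transcription, did not pass. Among them Foxo1 and Foxo3, which encode activators of Cdkn1b transcription, differed by 0.20 and 0.15, and Myc by -0.36 (limma adjusted p = 0.651, 0.771 and 0.829).

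In the RB and E2F list 0 of 13 genes passed, and the median difference was -0.03. At an unadjusted p under 0.05 it held 6 genes in both directions: Rb1 and E2f1 were higher in Satb1-/- cells, and Rbl2 (-0.39), E2f4 (-0.41), E2f7 (-0.34) and Tfdp1 (-0.45) were lower, named after their values were seen. Such a p was found for 10.5% of all genes and 16.5% of genes brighter than the median gene. Rb1, the gene of the RB protein, read 6.44, 6.96 and 6.51 on the Satb1-/- arrays, against 5.65, 6.31 and 5.33 on the WT arrays. Its groups did not overlap, and the difference of 0.88 (SE 0.23) missed the threshold (limma adjusted p = 0.113). Of its 20 brighter neighbours on chromosome 14, 13 had a positive difference (median 0.20) and 0 rose. Rb1 passed without WT replicate 2 (1.15, limma adjusted p = 0.0156). E2f1 differed by 0.34 (limma adjusted p = 0.403). Among the other CDK inhibitor genes 0 of 6 passed. Cdkn1c, the imprinted p57 gene, read 5.62, 5.90 and 5.59 on the Satb1-/- arrays, against 6.27, 6.08 and 6.53 on the WT arrays, and differed by -0.59 (SE 0.14, limma adjusted p = 0.0746). Cdkn2a differed by 0.18 (limma adjusted p = 0.673).

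None of the 18 measured E2F target genes of S phase passed the threshold (median difference 0.05, range -0.44 to 0.43), nor did any of the 14 cyclins and kinases of S, G2 and M phase (median 0.08) or the 15 genes of the p53 list (median -0.06). At an unadjusted p under 0.05 these lists held 3, 2 and 3 genes, and all 7 lists together 17 of 89. Of all genes 10.5% had such a p, and of genes brighter than the median gene 16.5%. WT replicate 3 was the highest WT array for 17 of the 18 S phase genes. Without it 5 genes of the 7 lists rose and 0 fell, namely Skp1, Klf4, Ccnf (0.50), Cdc25b (0.56), whose product activates CDK1, and Sesn1 (0.69), a p53 target gene. Over all genes, 1.79% rose and 0.622% fell without WT replicate 3, against 0.923% and 0.476% with all arrays. Trp53 was not analysed here.

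**Figure D5:**
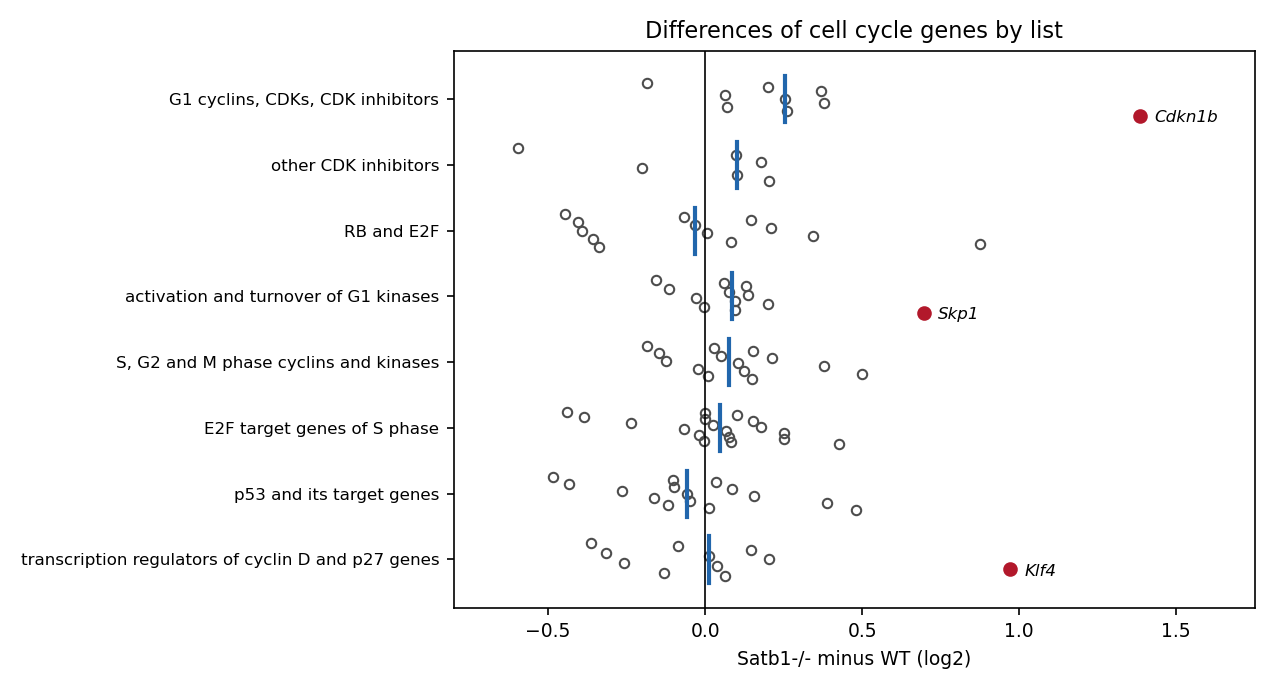
Difference Satb1-/- minus WT in log2 units (x axis) of each measured gene, by list (y axis); red points passed a limma adjusted p of 0.05 and blue lines are list medians. Cdkn1b (1.39), Klf4 (0.97) and Skp1 (0.70) passed, and the list medians lie between -0.06 and 0.26.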

How the data were processed

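The authors deposited log2 values made with RMA, per the submitters' processing notes. Its version and settings are not stated in the sources used here. RMA's background correction compresses differences of dim genes. The table held 35557 probe sets, with array medians of 4.69 to 4.85. Precision is limited by the number of arrays.

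Probe sets with exactly 1 symbol in the platform annotation (21789) were kept, and for each gene the one with the highest mean of the 6 arrays, which left 19938 genes. Gene order came from RefSeq (GRCm38.p6), which placed 19856 of them. The array's build is not given, so no coordinates are printed apart from those of the RefSeq promoter windows.

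The genotypes were compared by lmFit and eBayes of limma 3.58.1 in R 4.3.3, without covariates or a filter on dim genes, with Benjamini-Hochberg adjustment over all genes. Single gaps were tested by exact two-sided permutation (scipy 1.17.1). On simulated data with 200 changed genes in each of 5 comparisons of 3 against 3 arrays over 19938 genes, limma found 31.6% of changes of 0.5, 80.4% of changes of 1 and 98.8% of changes of 2 log2 units, and 3.4% of calls were false. The noise was drawn independently for each gene, so shifts shared across an array or among neighbours were not simulated, and these rates may not hold here. The family, the lists and the tests were chosen with earlier results of these data known. Named were the family, Satb1, up to 4 changed genes of each list, 7 fixed network genes, the nearest 2 genes on each side of Ccnd2 and Cdkn1b, and Nanog, Pou5f1, Col1a1 and Col3a1 as markers; other names were chosen after values were seen. Nanog, itself on distal chromosome 6, differed by 1.09 and Pou5f1 by -0.39 (limma adjusted p = 0.00109 and 0.309). Alternatives covered normalization, dim genes, probe sets, the variance model and replicates.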

Additional observations from a re-analysis of the deposited data

How the results depend on the processing

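Cdkn1b kept its direction and stayed past the threshold under all 16 alternatives, with differences of 1.24 to 1.5 and limma adjusted p from 0.000133 to 0.0298. The second probe set was chosen after seeing the data. Leaving out 1 array gave 1 to 2 genes of the family that rose and 0 that fell, the second being Ccnd1 (0.68) without WT replicate 3. For the 89 genes of the 7 lists the count that rose was 0 to 5 without 1 array, 1 with the mean of all probe sets, and 0 with each array centred, over all probe sets, with knockout arrays 1-1 and 1-2 averaged or at an adjusted p under 0.01; with array weights 1 fell (Btg2). Directions that turned were all of genes that did not pass: Ccne1 without WT replicate 2 (-0.10) or Satb1-/- replicate 1-1 (-0.01), Cdk6 without the same arrays (-0.091 and -0.05), and Ccne2 without WT replicate 3 (0.12) or with array weights (0.015). Without 1 array the differences ranged from -0.10 to 0.262 for Ccne1, -0.356 to 0.12 for Ccne2, -0.091 to 0.223 for Cdk6, 0.17 to 0.68 for Ccnd1, 0.10 to 0.43 for Cdk2 and 0.13 to 0.33 for Cdk4. The causes were not tested. The Ccnd2 gap changed by -0.74 to -0.58 without 1 array and by -0.15 with dim neighbours included. The Cdkn1b gap changed by 0.40 to 0.64 without 1 array and by 0.88 with 20 neighbours on each side, of which 9 of 40 were lower in Satb1-/- cells. No paired analysis was possible because the replicate numbers of the groups do not match. Weak probe signal limits what can be said of dim genes such as Ccne2.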
